A study of Mus musculus with 24 samples.

Results

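Stromal progenitors of adipose tissue were followed through 9 marker genes in retroperitoneal fat of adult mice: Pdgfra, Pdgfrb, Dpp4, Pi16, Cd55, Ly6a, Dcn, Cd34 and F3. The genes were chosen by their symbols, and all 9 of them were found among the 56895 gene entries shared by the 8 tables. All 9 passed the filter on low values in each of the 19 comparisons, so no member was lost before testing.

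Adipose tissue holds, besides adipocytes, a stromal fraction in which fibroblast-like progenitors lie in the connective tissue and around the vessels. In mouse fat a DPP4+ interstitial population with Pi16 and Cd55 has been described as the less committed state, from which ICAM1+ preadipocytes arise, and a CD142+ population, named after the product of F3, has been described as restraining adipocyte formation. PDGFRα marks most fibroblastic progenitors and PDGFRβ marks mural cells and perivascular progenitors, while Ly6a (Sca-1), Cd34 and Dcn are widely used to separate stromal cells from adipocytes and blood cells.

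RNA-seq was performed on whole tissue of C57BL/6J offspring (C57BL/6JRJ in the study's methods), 3 mice in each of 8 groups. Mothers received AIN-93G with 1.0 IU/g (CTRL) or 0.0 IU/g (VDD) of vitamin D3 for 8 weeks before mating and through gestation, and all mothers had control diet once the pups were born. From 6 weeks of age, males and females received AIN-93M (LF) or a diet with 45% of energy from fat (HF) for 8 weeks, and all were fasted overnight before sampling. No animal carried a transgene or a deletion, and no source used here says which mice were littermates, so p-values measure the spread between these mice, some of which may share a litter.

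Libraries held 13346779 to 18484346 reads on genes (median 15933506), and the 24 within-group pairs correlated with r from 0.863 to 0.981 over genes. The adipocyte list (12 genes, among them Adipoq and Plin1) held 4.20% to 8.21% of reads, so adipocyte transcripts were abundant in all 24. One library stood apart by kidney transcripts: VDD LF female 2303 had a mean of 9.07 on the log2(normalized reads + 1) scale over 10 kidney markers, and the other 23 had 0.31 to 2.57. Skeletal muscle markers ranged from 2.90 to 15.91 on that scale and were above 10 in 8 libraries, 6 of them VDD, with the top value in VDD LF male 2310. Adrenal markers (9 genes) held 0.236% of reads in CTRL HF female 2292, 0.111% in VDD HF female 2121 and 0.0781% in CTRL HF female 2290. In the other libraries they held at most 0.0107%, and the kidney markers held 0.0504% in VDD LF female 2303. No fit used an adrenal covariate. The deposited names of 6 libraries carry the tag renal, and no source used here explains it. It falls on 1 library in each of the 4 LF groups and of the 2 HF male groups and on 0 in either HF female group, so in females the tag was carried by LF mice alone. Averaged results of members that lost a call or a threshold without these 6 libraries are given with and without them.

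Reads were brought to 1 scale for all 24 libraries with median-of-ratios size factors (normalized reads) and, to compare genes with each other, divided by the union of a gene's exons in GENCODE M21 (GRCm38). Per kb of exon, Dcn, a small collagen-binding proteoglycan, had a median level of 2996 normalized reads (1305 to 7269), and Ly6a, a GPI-anchored surface protein, had 2070.2 (1110.2 to 4390.0). All other members were lower in all libraries. Cd34, a sialomucin of progenitors and endothelium, had 285 (90.0 to 619.9), F3, tissue factor, had 234 (150 to 348), Cd55, a complement decay regulator, had 227 (118 to 445) and Pi16, a secreted peptidase inhibitor, had 198 (39.1 to 576). At the lower end were Pdgfrb with 158 (61.5 to 276), Dpp4, a dipeptidyl peptidase of the cell surface, with 103 (17.8 to 268), and Pdgfra with 88.0 (47.7 to 149.9). The ranges of Dcn and Ly6a overlapped, and so did those of all neighbours from Cd34 to Pdgfra, so the only step in this order without overlap was that between Ly6a and Cd34. Over libraries, Pi16 and Dpp4 varied most (SD 1.04 and 1.03 on the log2 scale) and F3 least (SD 0.31).

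Promoters are shown for 4 members picked by the correlations described further on: Cd34, Dpp4 and Pdgfra, whose levels correlated over the libraries, and F3, whose level correlated little with theirs. RefSeq windows (GRCm38.p6) were found for 6 of 9 members. Each line gives the 250 bases before the RefSeq start, 5′ to 3′ on the strand of the gene, with capitals where a searched motif matched.
Cd34, chr1:194938571-194938820, + strand: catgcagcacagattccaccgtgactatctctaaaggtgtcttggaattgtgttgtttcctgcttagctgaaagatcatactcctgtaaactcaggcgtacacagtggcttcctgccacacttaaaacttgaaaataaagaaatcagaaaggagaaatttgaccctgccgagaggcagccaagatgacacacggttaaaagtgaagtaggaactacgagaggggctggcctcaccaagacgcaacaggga
Dpp4, chr2:62412232-62412481, minus strand: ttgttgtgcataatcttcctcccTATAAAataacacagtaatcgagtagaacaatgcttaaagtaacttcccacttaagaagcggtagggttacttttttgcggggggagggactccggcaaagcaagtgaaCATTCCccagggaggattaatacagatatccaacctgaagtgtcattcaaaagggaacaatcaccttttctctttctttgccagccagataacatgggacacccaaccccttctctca
Pdgfra, chr5:75152001-75152250, + strand: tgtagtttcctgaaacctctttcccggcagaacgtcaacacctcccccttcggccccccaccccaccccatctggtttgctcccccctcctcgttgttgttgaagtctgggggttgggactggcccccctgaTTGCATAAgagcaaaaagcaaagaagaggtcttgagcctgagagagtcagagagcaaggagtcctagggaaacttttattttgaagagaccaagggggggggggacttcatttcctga
F3, chr3:121723287-121723536, + strand: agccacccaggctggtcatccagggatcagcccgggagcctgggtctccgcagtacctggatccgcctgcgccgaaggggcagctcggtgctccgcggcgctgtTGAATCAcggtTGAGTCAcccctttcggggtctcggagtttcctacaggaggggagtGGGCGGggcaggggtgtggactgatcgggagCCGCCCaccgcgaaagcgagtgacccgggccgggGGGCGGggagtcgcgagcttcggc
Searched on both strands were the GC box (GGGCGG), the CCAAT box of promoters (CCAAT) and the TATA box (TATAAA). Also searched were the AP-1 site (TGANTCA), the C/EBP site (TTGCNNAA), the TEAD site (GGAATG) and the DR3 repeat of the vitamin D receptor. F3 held 3 GC boxes, at -89, -58 and -24 from the start, and 2 AP-1 sites, at -146 and -135, in a window with 70% G and C. Among 32851 mouse promoter windows, 32.7% held the GC box and 6.75% the AP-1 site. The Pdgfra window held 1 C/EBP site at -118 (9.56% of windows), and the Dpp4 window a TATA box at -227 (12.4%) and the TEAD site at -118 (12.6%). For Pdgfra alone of the 6 windows, the bases checked after the RefSeq start were in no GENCODE M21 transcript. There the gene begins at 75152292, after that start, so the positions given for Pdgfra hold for the RefSeq start only. Cd34 held no match. Of the windows not printed, Pi16 held 1 CCAAT box at -64 (33.8% of windows). That of Cd55, whose level also correlated with those of Cd34, Dpp4 and Pdgfra, held 2 GC boxes, at -77 and -7, and 64% G and C. The DR3 repeat was in none of the 6 windows and in 2 of all 32851. Only these exact letters were searched, and they are so rare that their absence from 6 windows cannot tell whether a vitamin D element lies there. A match is a run of letters, not a site shown to be used.

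In the fit of all 24 libraries, with HF averaged over both mothers' diets and both sexes, Cd34 rose 1.94-fold (95% interval 1.44 to 2.62), and 3 more members were higher at an adjusted p under 0.05: Pi16 2.06-fold, Pdgfrb 1.40-fold and Ly6a 1.30-fold. Estimates for Cd55, Pdgfra and Dpp4 were above 0, and those for Dcn and F3 below 0, without passing either threshold. A gene was called at an adjusted p under 0.01 with a fold above 1.5 or below 0.66, in limma fits. By this rule 1 of 9 members was called higher, beside 5.79% of 18399 genes (9.44% in either direction), and 4 of 9 were higher at an adjusted p under 0.05, beside 15.0%. With 1 library left out, the adjusted p reached 0.0510 for Pdgfrb and 0.0673 for Ly6a, so both could lose that threshold. For Pi16 it was at most 0.0302. The median log2 difference was 0.38 over the members and 0.01 over all genes. In bulk tissue, more cells of a type and more RNA per cell cannot be told apart.

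Cd34 had the smallest adjusted p of the members in the average over all groups. CTRL males had 1262, 1523 and 1791 normalized reads on LF and 3096, 2906 and 3735 on HF. VDD males had 656, 886 and 2755 on LF and 2072, 2945 and 4519 on HF. All 3 CTRL HF males lay above all CTRL LF males, while in VDD males the LF mouse with 2755, VDD LF male 2310, lay within the HF range. CTRL females had 2216, 1729 and 1549 on LF and 3886, 3586 and 3956 on HF, again without overlap. VDD females had 1314, 1350.0 and 1500.0 on LF and 2085, 865 and 2731 on HF. In that group, 1 HF mouse, VDD HF female 2083, fell under every LF mouse.
As a log2 difference, Cd34 was 1.05 higher on HF in CTRL females (SE 0.15, adjusted p = 0.0206) and 1.08 higher in CTRL males (SE 0.19, adjusted p = 0.0335), each fitted on its own 6 libraries. In VDD males it was 1.37 (SE 0.57, adjusted p = 0.192) and in VDD females 0.30 (SE 0.40, adjusted p = 0.907). Averaged over the mothers' diets in the fit of 24 libraries, Cd34 rose in males by 1.23 (SE 0.29, adjusted p = 0.00568), beside 5.04% of genes called higher and 8.46% called in either direction. In females the averaged difference was 0.68 (SE 0.29, adjusted p = 0.19). The call over both sexes (0.96, SE 0.21, adjusted p = 0.00206) was kept with each library left out (0.85 to 1.11, adjusted p at most 0.00464), but not without the 6 libraries named renal (0.90, adjusted p = 0.0387). Without them the difference in males was 1.02 (adjusted p = 0.134), and of the other members Pdgfrb alone had an adjusted p under 0.05 over both sexes (0.66, adjusted p = 0.024), with Pi16 at 1.04 (adjusted p = 0.0973) and Ly6a at 0.46 (adjusted p = 0.084). With the tag as a covariate instead, Cd34 was called over both sexes (0.95, adjusted p = 0.00319) and in males (1.23, adjusted p = 0.00724). The call in males was also lost in 9 of 24 fits with 1 library left out (adjusted p up to 0.0186): those without CTRL LF male 2287 or 2293, CTRL HF male 2127, 2128 or 2131, VDD LF male 2078 or 2302, and VDD HF male 2307 or 2308, with log2 differences of 1.17, 1.23, 1.25, 1.27, 1.18, 1.02, 1.13, 1.24 and 1.09.

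**Figure D1:**
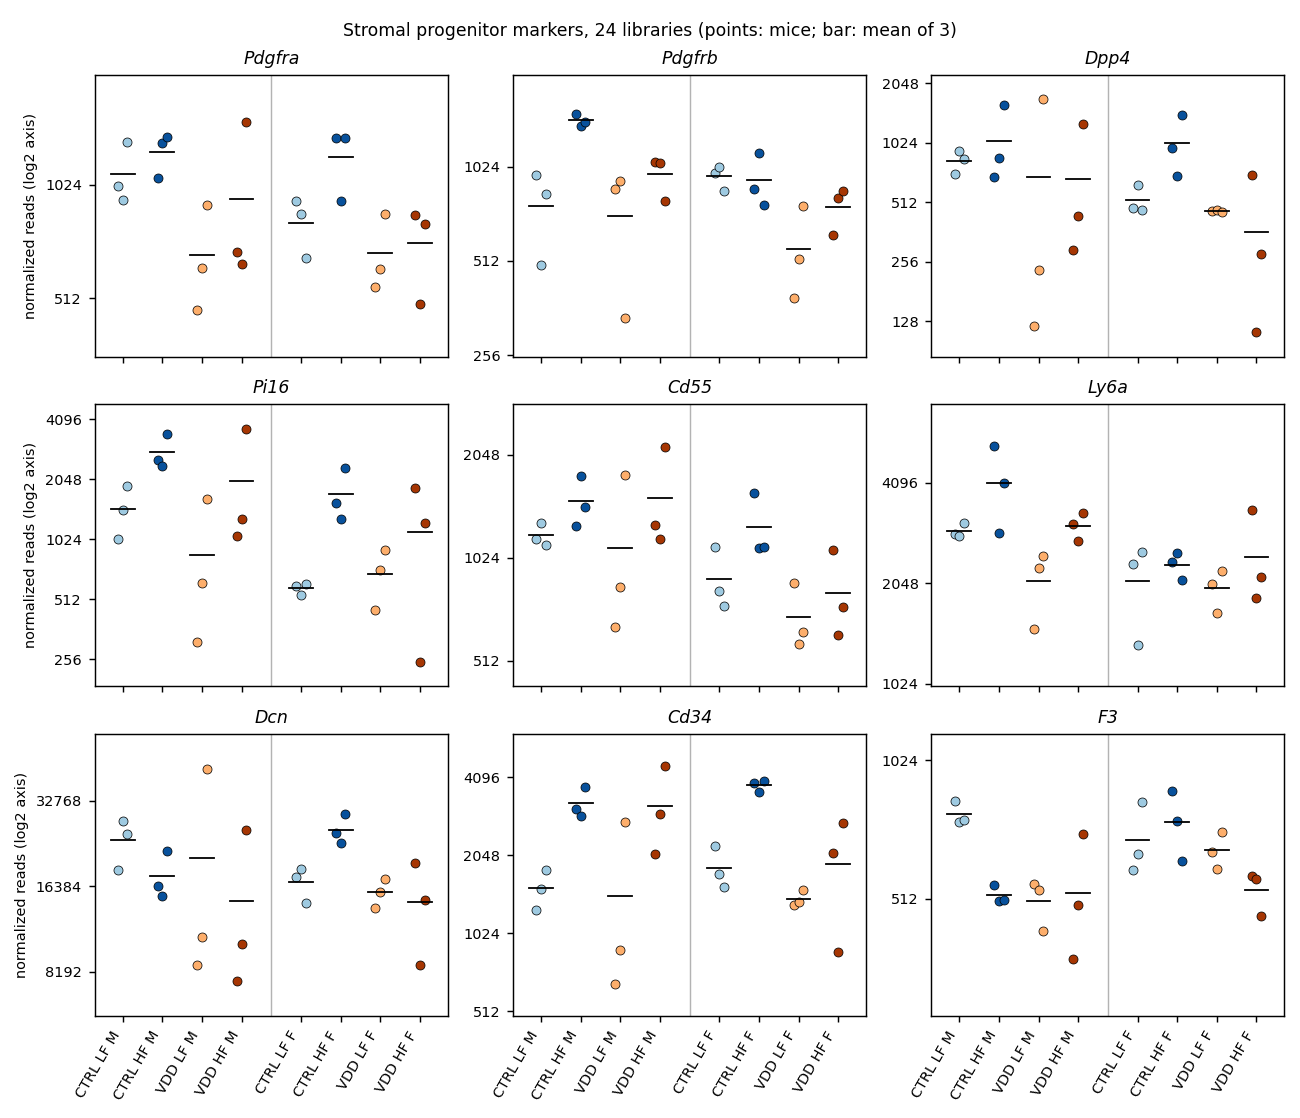
Normalized reads of the 9 members in each of the 24 libraries (points, 3 mice per group, log2 axis; bars are group means), males (M) left and females (F) right of the grey line. Cd34 sat at 2906 to 3735 in CTRL HF males against 1262 to 1791 in CTRL LF males, and Dpp4 spanned 122 to 1697 within VDD LF males.

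Pi16, Dpp4 and Cd55 are used together as markers of the interstitial population, and of these Pi16 passed the weaker threshold over all groups. Pi16 had 593, 538 and 612 normalized reads in CTRL LF females and 1558, 1294 and 2347 in CTRL HF females. In CTRL males it had 1025, 1434 and 1900.0 on LF and 2566, 2390.2 and 3477 on HF. Neither pair of groups overlapped. The difference was 1.51 in CTRL females (SE 0.21, adjusted p = 0.0206) and 0.97 in CTRL males (SE 0.25, adjusted p = 0.0967). VDD males had 314, 616 and 1625 on LF and 1066, 1298 and 3666 on HF (difference 1.34, SE 0.70, adjusted p = 0.287). VDD females had 449.8, 717 and 899.7 on LF and 1856, 249 and 1231 on HF (0.33, SE 0.71, adjusted p = 0.953). In both VDD pairs the groups overlapped. The averaged difference of Pi16 over all groups, 1.04 (SE 0.31, adjusted p = 0.0149), was as large as that of Cd34 with a wider error, and it was called without VDD HF female 2083 (1.26, adjusted p = 0.000959) or VDD LF male 2310 (1.20, adjusted p = 0.00351).

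Dpp4 was higher on HF in CTRL females, with 477, 625 and 466 normalized reads on LF and 962, 695 and 1411 on HF. These groups did not overlap, but the difference of 0.90 (SE 0.25) had an adjusted p of 0.069. In VDD females, LF mice lay within 457 to 469 and HF mice had 699, 113 and 279, a difference of -0.72 (SE 0.59, adjusted p = 0.856). In males, CTRL mice had 715, 928 and 851 on LF and 683, 853 and 1583 on HF, and VDD mice had 122, 233 and 1697 on LF and 295, 435 and 1276 on HF. Each VDD male group thus held 1 mouse far above the others, and the averaged difference over all groups was 0.26 (SE 0.36, adjusted p = 0.641). Leaving out VDD LF male 2078 gave 0.06, and leaving out VDD LF male 2310 gave 0.53.
Cd55 had group means from 687 ± 157 (SD, n = 3) in VDD LF females to 1534 ± 547 in VDD HF males. Its widest HF difference among CTRL mice was in females, 0.48 (SE 0.20, adjusted p = 0.16), from 1102, 819 and 739.6 to 1585, 1093 and 1101 normalized reads, groups that overlapped. Over all groups it was 0.40 (SE 0.16, adjusted p = 0.0596).

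Ly6a was at 2877, 2834 and 3106 normalized reads in CTRL LF males and at 5290.0, 2892 and 4096 in CTRL HF males, which overlapped. VDD males had 1489, 2266 and 2469 on LF and 3076, 2734 and 3322 on HF, without overlap (0.58, SE 0.21, adjusted p = 0.156). Female means lay between 1979 ± 285 and 2461 ± 827 (SD, n = 3). Over all groups the difference was 0.38 (SE 0.13, adjusted p = 0.0345). Ly6a lies in a cluster of related Ly6 genes, reads with more than 1 position were discarded by the authors, and what this took from its level was not tested.

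The receptors for platelet-derived growth factors are given next. Pdgfrb, bound by PDGF-B and PDGF-D, had 960.0, 498 and 835 normalized reads in CTRL LF males and 1509.8, 1384 and 1423 in CTRL HF males. These groups did not overlap, and the difference was 0.95 (SE 0.24, adjusted p = 0.0897). In CTRL females it was at 979.8, 1019 and 859 on LF and at 869, 1131 and 772 on HF, which overlapped. Averaged over mothers, the log2 difference of Pdgfrb was 0.77 in males (SE 0.22, adjusted p = 0.0178) and 0.21 in females (SE 0.22, adjusted p = 0.635), and the test of the difference between the sexes gave 0.55 (SE 0.32, adjusted p = 0.638).
Pdgfra, the receptor for PDGF-A and PDGF-C, had 926, 854 and 654 normalized reads in CTRL LF females and 1361, 926 and 1358 in CTRL HF females (0.55, SE 0.19, adjusted p = 0.114), with 1 value, 926, at the edge of both groups. Its averaged difference was 0.32 (SE 0.15, adjusted p = 0.122).
Among the 4 ligands, Pdgfa was higher on HF (0.41, SE 0.13, adjusted p = 0.0216), which passed the weaker threshold. Pdgfc (0.36, adjusted p = 0.0852), Pdgfd (0.35, adjusted p = 0.0925) and Pdgfb (0.04, adjusted p = 0.886) did not. Pdgfa had 132 ± 27 normalized reads (SD, n = 3) in CTRL LF males and 194 ± 42 in CTRL HF males, and 182 ± 28 and 257 ± 29 in the CTRL females.

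Dcn and F3 were the 2 members with averaged HF estimates below 0. In CTRL females Dcn had 17598, 18857 and 14342 normalized reads on LF and 25168, 23299 and 29364 on HF, without overlap (0.60, SE 0.21, adjusted p = 0.118). In CTRL males it had 18666, 27915 and 24956 on LF and 16366, 15177 and 21863 on HF (-0.43, SE 0.28, adjusted p = 0.437), with overlap. The sexes thus had estimates of opposite sign, and the test of that difference over both mothers' diets gave -0.59 (SE 0.47, adjusted p = 0.754). Over all groups the estimate was -0.08 (SE 0.23), and its sign turned with the scaling by total reads (0.09) and, at values close to 0, without VDD LF male 2310 (0.10), VDD HF male 2298 (0.01) or VDD HF female 2083 (0.00).
F3 had 836, 751 and 761 normalized reads in CTRL LF males and 548, 504 and 509 in CTRL HF males. The groups did not overlap, and the difference was -0.60 (SE 0.15, adjusted p = 0.0968). In CTRL females F3 was at 591, 641 and 830.1 on LF and 878, 755 and 616 on HF, which overlapped. Its averaged HF difference was -0.18 (SE 0.09, adjusted p = 0.152).

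By pair of groups, no member was called in any of the 4 HF comparisons with limma or with limma-voom. All genes were called in 0.0578% (CTRL males), 0.0752% (VDD males) and 0.0% (both female pairs) of cases. At an unadjusted p under 0.05, 6 members were higher in CTRL females, beside 14.4% of genes. In CTRL males 3 were higher and 1 lower, beside 18.8% in either direction. In VDD males 2 were higher, beside 13.7%, and in VDD females none passed in either direction, beside 5.05%. Limma-voom gave 6, 5, 2 and 0 members at that level. The 3 HF and 3 LF mice did not overlap for 4 members in CTRL females, all higher, beside 35.2% of genes. The same held for 4 members in CTRL males, 3 higher (Pdgfrb, Pi16, Cd34) and F3 lower, beside 24.7%. In VDD males it held for 1 member, Ly6a, beside 33.4%, and in VDD females for 1, F3, lower, beside 11.6%. Over both mothers' diets, no member was called in females, where 0.272% of genes were called, with 2 members higher at an unadjusted p under 0.05 by limma, beside 10.6% of genes, and by limma-voom.

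**Figure D2:**
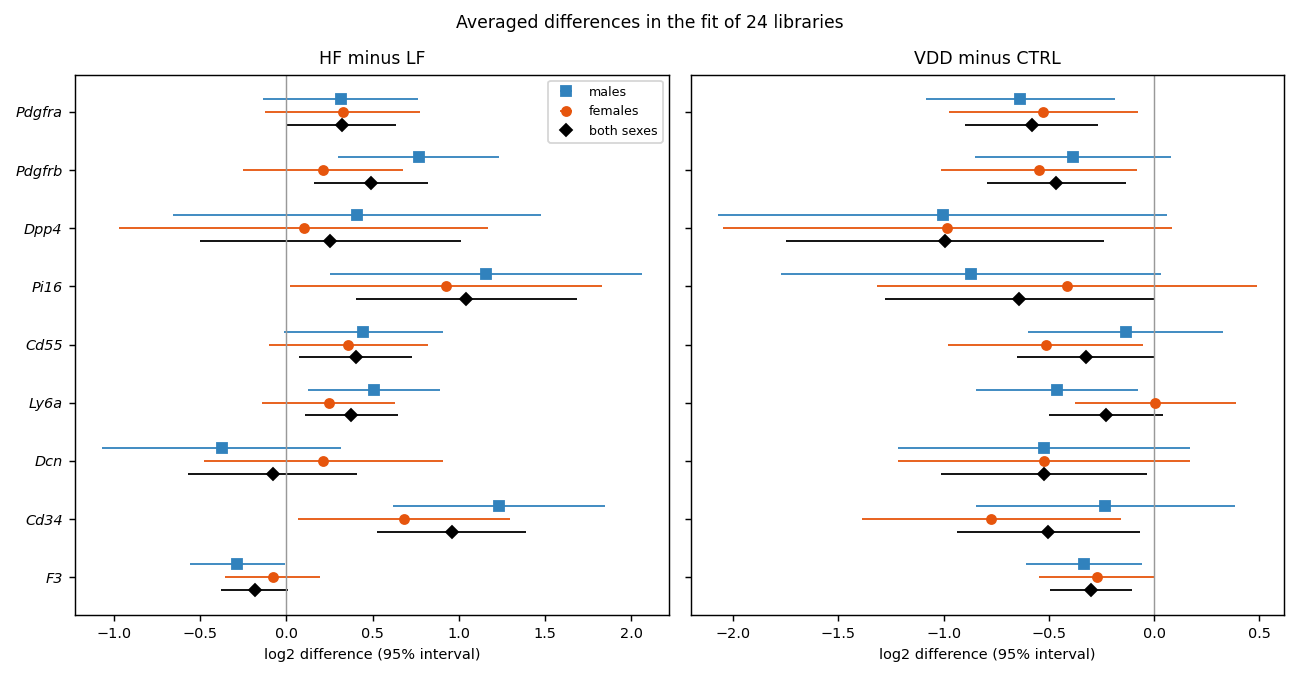
Log2 differences of the 9 members with 95% intervals from the fit of 24 libraries, HF minus LF (left) and VDD minus CTRL (right), for males (squares), females (circles) and both sexes (diamonds). Cd34 in both sexes lay at 0.96 (0.52 to 1.39) for HF, and all 9 diamonds for VDD lay below 0, from -0.99 (Dpp4) to -0.23 (Ly6a).

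For maternal VDD the estimates of all 9 members were below 0 in the average over both diets and sexes, with a median log2 difference of -0.50 over the members and -0.01 over all genes. Pdgfra was the 1 member with an adjusted p under 0.05 (-0.58, SE 0.15, adjusted p = 0.037), beside 2.05% of genes lower at that level. None was called, beside 0.103% of genes in either direction, and 7 were lower at an unadjusted p under 0.05 (6 by limma-voom), beside 11.1%. The others ran from Dpp4 (-0.99, SE 0.36, adjusted p = 0.11) over Pi16 (-0.64, adjusted p = 0.217), Dcn (-0.52, adjusted p = 0.189), Cd34 (-0.50, adjusted p = 0.155) and Pdgfrb (-0.46, adjusted p = 0.0893) to Cd55 (-0.33, adjusted p = 0.221), F3 (-0.30, adjusted p = 0.0649) and Ly6a (-0.23, adjusted p = 0.296). By sex, all 9 were below 0 in males and 8 of 9 in females, with no call in either (0.0% of genes in both), and 3 members lower in males and 4 in females at an unadjusted p under 0.05 by limma as by limma-voom, beside 4.41% and 10.8% of genes.
These values depended on which libraries carried weight. VDD LF male 2310 had the highest summed level of the members among the 24 libraries (54449 normalized reads), so leaving it out lowers the summed level of the VDD mice. Its omission together with VDD LF female 2303 was chosen after the data were seen. Without VDD LF female 2303 and VDD LF male 2310, 5 members had an adjusted p under 0.05: Dpp4 (-1.27, adjusted p = 0.0211), Pdgfra (-0.61, 0.0293), Cd34 (-0.65, 0.0345), Cd55 (-0.48, 0.0388) and Dcn (-0.68, 0.0427), beside 3.4% of genes lower at that level. With array weights, which give less weight to libraries that scatter more, 4 members passed the call rule: Pdgfra (-0.75, adjusted p = 0.00048), Dpp4 (-1.32, adjusted p = 0.00103), Cd34 (-0.66, adjusted p = 0.00325) and Dcn (-0.72, adjusted p = 0.00394), beside 2.86% of genes called lower. Without the libraries named renal Pdgfra had an adjusted p of 0.216, and with the tag as a covariate 0.0407. With 1 library left out, the adjusted p of Pdgfra ran from 0.0114 to 0.0762.

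By pair of groups, VDD was compared with CTRL in HF females first. Dpp4 had 962, 695 and 1411 normalized reads in CTRL HF females and 699, 113 and 279 in VDD HF females. In this joint scaling the highest VDD mouse (699) passed the lowest CTRL mouse (695), while in the scaling of the table of this pair all 3 VDD mice lay below all CTRL mice (-1.79, SE 0.62, adjusted p = 0.231). Cd34 had 3886, 3586 and 3956 in CTRL HF females and 2085, 865 and 2731 in VDD HF females (-1.15, SE 0.40, adjusted p = 0.231), without overlap. Dcn (-0.91, adjusted p = 0.255), Pdgfra (-0.76, adjusted p = 0.221), Cd55 (-0.65, adjusted p = 0.261) and F3 (-0.47, adjusted p = 0.251) were also lower in every VDD mouse in that table, which made 6 of 9 members without overlap beside 22.9% of genes. None was called by limma, where 6 members were lower at an unadjusted p under 0.05 (7 members by limma-voom), beside 9.1% of genes, and 0.0% of genes were called.
In LF males, Pdgfra had 1016, 933 and 1325 normalized reads in CTRL and 478, 617 and 904 in VDD mice (-0.73, SE 0.26, adjusted p = 0.683), without overlap. F3 had 836, 751 and 761 in CTRL and 549.6, 535 and 434 in VDD LF males (-0.62, SE 0.16, adjusted p = 0.624), and Ly6a was lower in each VDD mouse too (-0.52, SE 0.21, adjusted p = 0.708). That made 3 of 9 members, beside 13.4% of genes. In contrast, Dpp4 had 715, 928 and 851 in CTRL LF males and 122, 233 and 1697 in VDD LF males (-1.17, SE 0.87), where a single mouse lay above and the other two below all CTRL mice. In LF females, Pdgfrb had 979.8, 1019 and 859 in CTRL and 391, 521 and 769 in VDD mice (-0.82, SE 0.23, adjusted p = 0.391), and Cd34 was lower as well, 2 of 9 beside 18.2%. In HF males, Pdgfrb was the 1 member without overlap, with 1509.8, 1384 and 1423 in CTRL and 1062, 1052 and 793 in VDD mice (-0.60, SE 0.16, adjusted p = 0.94), beside 10.3%. No member was called in these 3 pairs (0.0% of genes each), with 3, 2 and 1 members lower at an unadjusted p under 0.05 by limma, beside 3.67%, 6.53% and 2.12% of genes, and 3, 1 and 1 by limma-voom.
Comparisons of HF with LF and of VDD with CTRL share groups: the CTRL HF females are also the mice to which VDD HF females were compared. In them 4 of 9 members were above LF without overlap, beside 35.2% of genes without overlap in either direction. In CTRL HF females 10 mesothelium marker genes held 0.0631% to 0.135% of reads. Their share was lower without overlap in CTRL LF females (0.033% to 0.0462%) and VDD HF females (0.0233% to 0.0479%). After subtracting group means, r of members with the mean of these genes ran from -0.61 (Pdgfrb) to 0.89 (Dcn). The part of mesothelium in these pairs was not tested further.

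Transcripts of 2 surface proteins, Cd55 and Ly6a, had higher means in males. Cd55 ran from 641 to 2161 normalized reads in males and from 574 to 1585 in females, and Ly6a from 1489 to 5290.0 and from 1338 to 3401. The sexes thus overlapped for both. Over 12 males and 12 females, Cd55 was 1.45-fold higher in males (0.54, SE 0.16, adjusted p = 0.0198) and Ly6a 1.35-fold higher (0.43, SE 0.13, adjusted p = 0.0239), 2 of 9 members beside 9.04% of genes higher in males at an adjusted p under 0.05. None was called, beside 7.3% of genes, and 3 members were higher at an unadjusted p under 0.05 by limma, beside 15.2%, and by limma-voom. Pi16, the third, was 1.71-fold higher (0.77, SE 0.31, adjusted p = 0.0828). Cd34 (0.02) and Dcn (-0.04) were close to 0. Pdgfb was the ligand with the smallest p (0.57, SE 0.15, adjusted p = 0.0107). Without the libraries named renal, Cd55 was at 0.65 (adjusted p = 0.0735) and Ly6a at 0.48 (adjusted p = 0.116), and with the tag as a covariate at 0.56 (adjusted p = 0.0237) and 0.41 (adjusted p = 0.0405).
Markers of other tissues also differed between the sexes. All 10 mesothelium genes were below 0 in males (median -0.95), 2 of them called and 3 with an adjusted p under 0.05, and their median share of reads was 0.0239% in males and 0.0471% in females. All 3 adrenal genes tested were called lower in males (median -4.37), as was 1 of 3 kidney genes (median -1.62). All 10 macrophage genes were above 0 (median 0.80), 4 of them called. With the mesothelium score as a covariate 7 members were higher in males at an adjusted p under 0.05, 3 of them called. The median log2 difference in that fit was 0.45 over the members and -0.0028 over all genes. The share of all genes passing these thresholds in it is not given here, so the member counts have no background beside them. Also called higher in that fit were 11 of 18 interstitial progenitor genes, which include these 3, 9 of 27 matrix genes and 7 of 10 macrophage genes. Of 12 adipocyte genes 1 was called higher, and of 12 endothelial genes 0. The part of these tissues in the sex differences was not tested further.
Whether the response to HF depended on the mother was tested as an interaction. No member passed it in males (adjusted p = 1 for all 9, 1 higher at an unadjusted p under 0.05 beside 2.45% of genes, 0.0% of genes called) or in females (adjusted p at least 0.798, none at an unadjusted p under 0.05 beside 6.36% of genes, 0.0% of genes called), with the same counts by limma-voom. The intervals were wide: for Cd34 in females -0.78 (95% interval -2.00 to 0.45), for Dpp4 in females -1.64 (-3.78 to 0.49) and for Pi16 in females -1.21 (-3.02 to 0.60). F3 in males was the member at an unadjusted p under 0.05 (0.60, 0.05 to 1.16), with 836, 751 and 761 normalized reads on LF and 548, 504 and 509 on HF in CTRL males beside 549.6, 535 and 434 on LF and 379, 495 and 707 on HF in VDD males. Nor did a member pass the test of a difference between the sexes in its response to HF (adjusted p at least 0.638, beside 0.0272% of genes called) or to VDD (adjusted p at least 0.739, 0.0% called). None had an unadjusted p under 0.05 by either tool (8.92% and 6.63% of genes by limma). The estimates ran from -0.59 to 0.55 for HF and from -0.47 to 0.54 for VDD, so equal responses of the sexes were not shown.

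The other genes of these cell types were read from lists, some of which include members. Of 18 genes of the interstitial progenitor list, which holds Dpp4, Pi16 and Cd55, all had estimates above 0 under HF in the average over all groups (median 0.60), 8 at an adjusted p under 0.05, and 3 were called. These were Fbn1, the fibrillin of microfibrils (1.49, SE 0.27, adjusted p = 0.000548), Cd248, endosialin (1.29, SE 0.29, adjusted p = 0.00277), and Stmn4 (1.49, SE 0.37, adjusted p = 0.00511). Without the libraries named renal all 3 calls were lost (Fbn1 1.57, adjusted p = 0.0102, Cd248 1.44, adjusted p = 0.0216, and Stmn4 1.38, adjusted p = 0.05), and that of Stmn4 was also lost in 5 of 24 fits with 1 library left out (adjusted p up to 0.0116): those without CTRL HF male 2131, CTRL LF female 2125, CTRL HF female 2292, VDD LF female 2311 or VDD HF female 2121.
Fibroblast matrix genes had a higher median. Of 27 genes, Dcn included, 18 rose, none fell by the call rule, and the median was 1.11. Col6a1 and Col6a2, chains of the beaded filaments around adipocytes, rose by 1.54 (SE 0.17) and 1.73 (SE 0.19), both with an adjusted p of 1.1e-05. Sparc, a collagen-binding glycoprotein, rose by 1.03 (SE 0.12), and Thy1, a surface marker of fibroblasts, by 1.44 (SE 0.17). Dcn, at -0.08, was thus 1 of 3 genes of this list with an estimate below 0.
In the committed preadipocyte list, 3 of 14 rose, all collagens: Col15a1 (1.90, SE 0.24, adjusted p = 2.5e-05), Col4a1 (0.68, SE 0.10) and Col4a2 (0.73, SE 0.12). Its median was 0.12. The list shares Fabp4 and Pparg with the adipocyte list and also holds Lpl and Cd36. It held 2.22% to 5.15% of reads, beside 0.0398% to 0.197% for the interstitial progenitor list. The part of adipocytes in its values was not tested. In the CD142 regulatory cell list, which holds F3, 2 of 11 rose, the homeobox genes Meox1 (0.90, SE 0.16) and Meox2 (0.59, SE 0.12), and in the mural cell list, which holds Pdgfrb, 1 of 12, Rgs5 (0.60, SE 0.12), a regulator of G protein signalling in pericytes. The calls of Meox2 (0.63, adjusted p = 0.0133) and Rgs5 (0.60, adjusted p = 0.0216) were lost without the libraries named renal. With 1 library left out, the fold of Meox2 was under 1.5 in 13 of 24 fits (log2 difference down to 0.53, adjusted p at most 0.00282): those without CTRL LF male 2296, CTRL HF male 2128 or 2131, VDD LF male 2078 or 2310, VDD HF male 2298 or 2307, CTRL LF female 2125, CTRL HF female 2290 or 2291, VDD LF female 2311, or VDD HF female 2081 or 2083. That of Rgs5 was under 1.5 in 7 fits (down to 0.53, adjusted p at most 0.00297): those without CTRL HF male 2128, VDD LF male 2310, VDD HF male 2307, CTRL LF female 2335, CTRL HF female 2291, VDD LF female 2303 or VDD HF female 2083. None of 12 endothelial genes was called (median 0.24) and none had an adjusted p under 0.05.

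Under maternal VDD all 27 matrix genes were below 0 (median -0.71), 17 with an adjusted p under 0.05 and none called. The committed preadipocyte list had 1 gene called, Col4a1, which fell by 0.66 (SE 0.10, adjusted p = 0.00466), a call not made with the skeletal muscle score as a covariate (adjusted p = 0.0169), without the libraries named renal (adjusted p = 0.0582) or in 11 of 24 fits with 1 library left out (adjusted p up to 0.0143). Those were the fits without CTRL LF male 2296, CTRL HF male 2131, VDD HF male 2298 or 2307, CTRL LF female 2124, CTRL HF female 2290, 2291 or 2292, VDD LF female 2303 or 2311, or VDD HF female 2083. The interstitial progenitor list had 14 of 18 below 0 (median -0.58) and 2 with an adjusted p under 0.05, the CD142 list 11 of 11 below 0 and 1, and the mural list 10 of 12 below 0 and none. Adipocyte genes were centred at 0.03, with none at an adjusted p under 0.05.
Markers of other tissues were read in the same comparison. All 10 mesothelium genes were below 0 (median -0.87, none with an adjusted p under 0.05), and their share of reads was 0.014% to 0.135% in CTRL and 0.00203% to 0.0908% in VDD libraries (medians 0.0349% and 0.0303%). All 10 skeletal muscle genes were above 0 (median 2.54, none with an adjusted p under 0.05), with 0.00376% to 0.42% of reads in CTRL and 0.00376% to 5.71% in VDD libraries (medians 0.0127% and 0.137%), and no muscle gene was at 0 in a whole group. With the mesothelium score as a covariate, the median of the members for VDD was -0.28 and Dpp4 was at -0.51 (adjusted p = 0.135). With the muscle score it was -0.49, Pdgfra had an adjusted p of 0.0875 and 5 matrix genes had one under 0.05. For HF, Cd34 was called under both covariates (0.85 and 0.96), and the matrix list kept a median of 1.04 and 1.11. The part of these tissues in the results was not tested further.

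**Figure D3:**
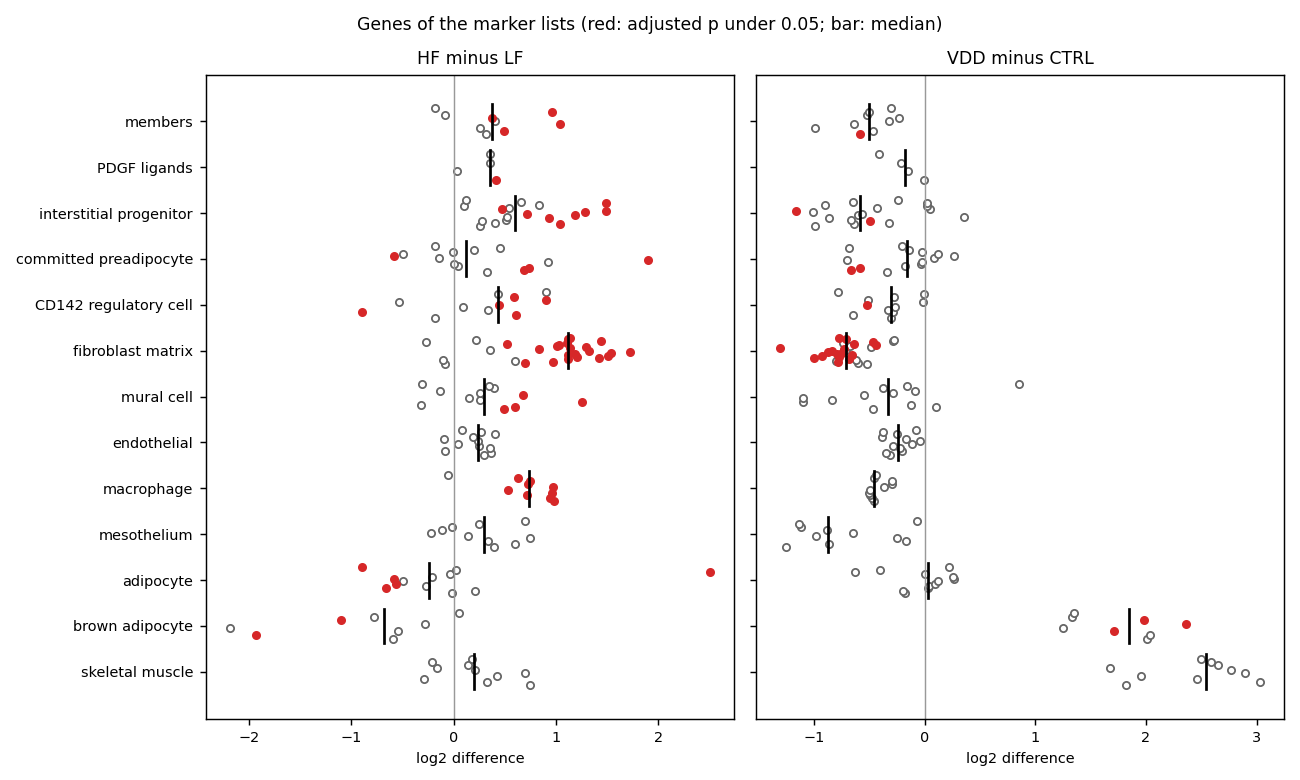
Log2 differences of the genes of 13 lists in the average over all groups, HF minus LF (left) and VDD minus CTRL (right); filled red points have an adjusted p under 0.05 and bars are medians. Fibroblast matrix genes had medians of 1.11 and -0.71, the 9 members 0.38 and -0.50.

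Over the 24 libraries 6 of the members correlated with each other in every pair. Pairs among Pdgfra, Dpp4, Pi16, Cd55, Dcn and Cd34 had Pearson's r of log2 levels from 0.53 to 0.88 (Spearman's rho 0.50 to 0.89), and from 0.45 to 0.85 without the 2 libraries farthest from the median. After subtracting group means these 15 pairs had r from 0.63 to 0.95, with the mice of all groups pooled. Groups with a wide spread weigh most in these r: Dpp4 spanned 122 to 1697 normalized reads in VDD LF males and 457 to 469 in VDD LF females. Whether the levels varied together within each group was not tested. The highest r was that of Dpp4 with Dcn (0.88, and 0.95 after group means). Ly6a followed in part (r from -0.07 to 0.74). Pdgfrb had r from -0.32 to 0.35 with the other members and, after group means, -0.71 with Dpp4 and with Cd55. F3 had r from -0.07 to 0.38. These are descriptions across libraries that share diets, dissection and tissue composition, and no p was computed.
The marker lists were read without their members. Pi16 had r = 0.95 with the mean of the other 15 interstitial progenitor genes, and Cd34 0.94 with the mean of 26 matrix genes and 0.91 with the interstitial list. With that list Ly6a had 0.72 and Dcn 0.58. High r was not particular to stromal lists. With the mean of 10 macrophage genes Pi16 had 0.89, Cd55 0.82, Ly6a 0.79, Pdgfra 0.79, Dpp4 0.69, Cd34 0.69 and Dcn 0.52. Pdgfrb had 0.28 and F3 -0.01 with it. Dcn and Dpp4 had 0.77 and 0.70 with the mean of 10 mesothelium genes. Pdgfrb had 0.86 with 12 endothelial genes and 0.46 with 11 mural genes.
For each member, the 3 genes with the highest r among 18398 others were named. For Cd34 these were Kdelc2 (0.98), Loxl1 (0.96), a lysyl oxidase of elastic fibres, and Rcn3 (0.95), a calcium-binding protein of the endoplasmic reticulum. Pi16 had Scara3 (0.95), Qpct (0.94) and Timp2 (0.93), an inhibitor of metalloproteinases. Pdgfra had Axl (0.92), a receptor tyrosine kinase, Ddr2 (0.91), a collagen receptor, and Reck (0.90). Pdgfrb had Notch3 (0.95), the Notch receptor of mural cells, She (0.91) and Dock6 (0.91). Dpp4 had Prss23 (0.93), Adgrd1 (0.92) and Rnase4 (0.92), and Dcn had Ptprq (0.94), Lrrn4 (0.92), itself a gene of the mesothelium list, and the assembled locus XLOC_032425 (0.91). Cd55 had Cfb (0.91), a complement factor, Vwa5a (0.90) and Arhgap18 (0.89), and Ly6a had Tmem106a (0.89), Pla1a (0.87) and Lmntd1 (0.87). F3 had no near neighbour: its highest were Gm43300 (0.68), Thbs2 (0.67) and Cyp1b1 (0.67), and after group means these fell to 0.43, 0.35 and 0.28.

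**Figure D4:**
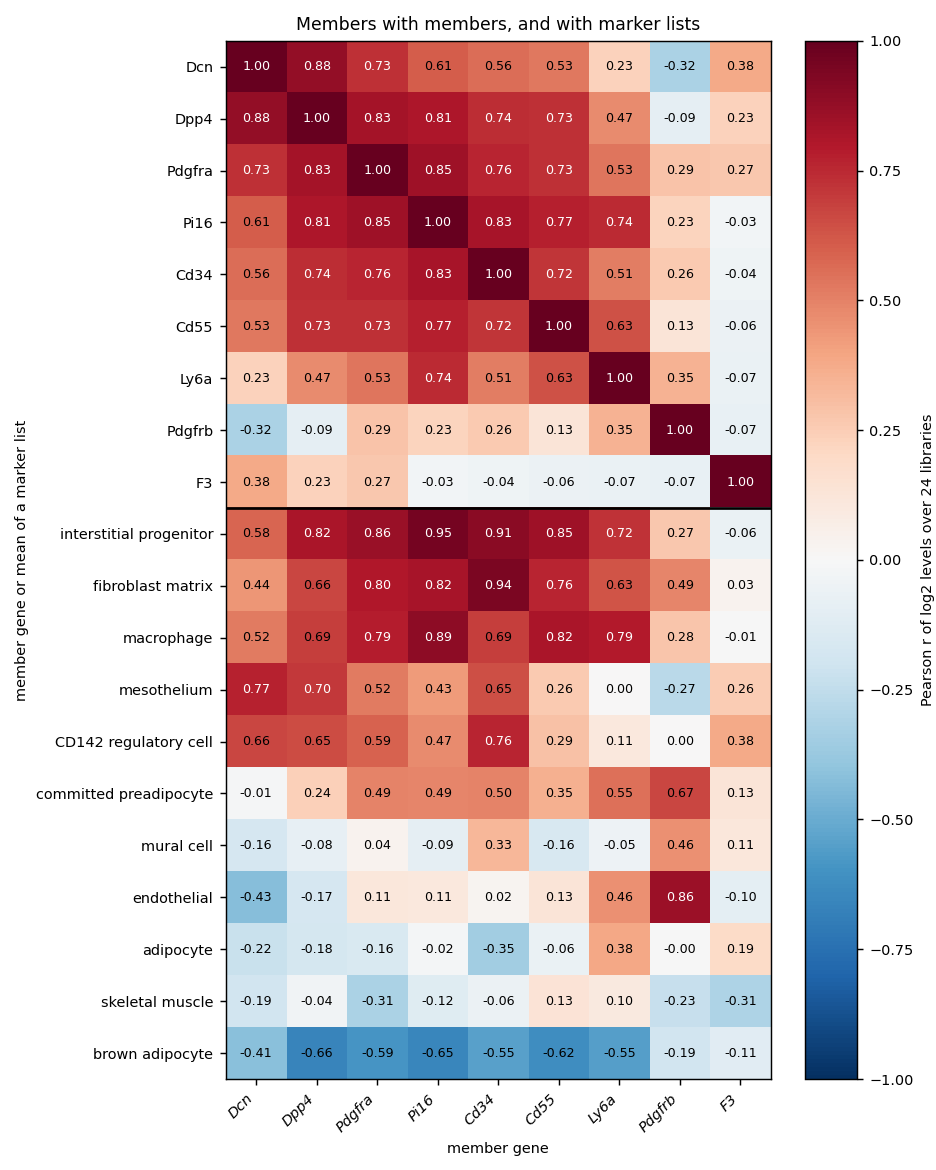
Pearson's r of log2 levels over 24 libraries between members (upper block) and between members and the mean of each marker list without its members (lower block); red is positive and blue negative. Pi16 with the interstitial progenitor list (0.95) and Cd34 with the fibroblast matrix list (0.94) were the highest in the lower block, and the highest value of the Pdgfrb column there is the endothelial row (0.86).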

How the data were processed

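RNA-seq of retroperitoneal fat was deposited as 8 tables of 6 libraries each. The authors used Sickle for trimming and STAR 2.7.0d for alignment to mm10, keeping unique positions, assembled transcripts with Cufflinks 2.2.1, counted with featureCounts 1.6.1 and scaled with DESeq2, one pair of groups at a time. The deposited values are log2(normalized reads + 1), normalised by the authors within each table. No source used here says whether counting used the strand. The tables also hold the authors' fold changes and p-values, which were not used.

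Reads were recovered from the log2 values: 100% of values were whole multiples of 1 read within 0.02. Duplicated names (4 entries) were left out. Libraries held 13346779 to 18484346 reads. Values per library come from 1 scaling of all 24 libraries, and pairwise differences from the scaling of each table. Differences were tested with limma 3.58.1 (trend, R 4.3.3) over genes that reached 10 normalized reads in 3 or more libraries, with Benjamini-Hochberg adjustment over all genes tested: in each table for the 8 pairs, and over all 24 libraries (18399 genes) for averaged comparisons and interactions. Intervals are 95% intervals. The scripts were tested on simulated data. Figures and summaries used Python 3.11.15.

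The members and lists were chosen with earlier results of these data known. Named were the 9 members, the 4 PDGF ligands, up to 4 called genes of a list per averaged comparison by smallest p, and the 3 genes most alike to each member. Lists of brown adipocyte, macrophage, lymphocyte, kidney, adrenal and housekeeping genes were counted as well. Alternatives were the filter, a pseudocount of 10, limma-voom, scaling by total reads, array weights, a skeletal muscle covariate, leaving out the renal libraries and leaving out each library. A mesothelium covariate, the renal tag as a covariate and leaving out the 2 libraries highest in kidney or skeletal muscle transcripts were added after seeing the data. Libraries are named by group and the animal number in the deposited names.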

Additional observations from a re-analysis of the deposited data

How the results depend on the processing

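No paired analysis was possible because the columns carry none of the labels' replicate numbers.

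Counts of called genes moved by more than 1.5 times in these settings. Pairs: VDD against CTRL in HF females, 5 in the joint fit (0 in its own table), and in LF males, 2 (0). HF against LF in CTRL females, 13 without the filter and 23 in the joint fit (0). In CTRL males, 39 without the filter, 15 with a pseudocount of 10 and 2 with limma-voom (9). In VDD males, 37, 47, 0 and, in the joint fit, 863 (12). Averages: HF in males, 2828 with array weights and 265 without the renal libraries (1556). HF in females, 16 without the filter, 14 with total reads, 304 with array weights, 0 without the renal libraries, 96 with the mesothelium covariate and 19 with the renal tag (50). HF over all groups, 801 without the renal libraries (1736). VDD in males, 18 with array weights and 1 with the mesothelium covariate (0), and in females, 732 with array weights (0). VDD over all groups, 50 with total reads, 926 with array weights, 0 with the muscle covariate, 0 without the renal libraries and 56 with the renal tag as a covariate (19). Sex, 2437 with array weights and 366 without the renal libraries (1343). Interaction, 1 in males with a pseudocount of 10 and 3 in females without the filter (0). HF response by sex, 3 without the filter, 0 with limma-voom, 2 with total reads, 8 with array weights, 0 without the renal libraries, 1 with the renal tag and 1 without VDD LF female 2303 and VDD LF male 2310 (5). The cause was not tested.

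With each library left out in turn, the counts ran from 0 to 142 for VDD in HF males (142 without VDD HF male 2308) and 0 to 264 for HF in VDD males (264 without VDD LF male 2310). They ran from 0 to 1 for HF in CTRL females and 0 to 10 in CTRL males, 959 to 2022 for HF in males, 0 to 276 in females and 1412 to 2091 over all groups. They ran from 0 to 156 for VDD in females, 0 to 195 for VDD over all groups, 1040 to 1638 for sex and 1 to 7 for the HF response by sex.

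Member estimates near 0 changed sign. Dcn under HF over all groups was 0.087 with total reads, 0.016 with array weights, 0.076 without VDD LF female 2303 and VDD LF male 2310, and -0.21 to 0.098 with 1 library left out. In HF females, Dpp4 was -0.012 with the mesothelium covariate (-0.23 to 0.43 with 1 library left out) and F3 0.034 with total reads. Under VDD, Cd34 in males was 0.0058 with the mesothelium covariate, and Ly6a in females was -0.21 with total reads, -0.058 with array weights, -0.0035 with the muscle covariate and -0.0087 without VDD LF female 2303 and VDD LF male 2310 (-0.14 to 0.10 with 1 left out). With 1 left out, Cd55 under VDD ran from -0.35 to 0.021 in males and Pi16 from -0.70 to 0.019 in females. Between the sexes, Pdgfrb was -0.0043 with the mesothelium covariate, Dcn 0.45 with it and 0.10 without the renal libraries (-0.21 to 0.073), and Cd34 -0.010 with total reads, -0.11 with array weights and -0.14 without VDD LF female 2303 and VDD LF male 2310 (-0.13 to 0.13). In VDD females under HF, Cd34 ran from -0.035 to 0.78 and Pi16 from -0.26 to 1.19. Calls of members were gained as well: for HF over all groups, Pi16 was called with total reads (1.21), array weights (1.06), the mesothelium covariate (0.90) and without VDD LF female 2303 and VDD LF male 2310 (1.13). In HF males, Pdgfrb was called with the mesothelium covariate (0.85), Ly6a with total reads (0.73) and Pi16 with array weights (1.25). With the mesothelium covariate Dpp4 (1.08), Pi16 (1.34) and Cd55 (0.77) were called higher in males.

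Scaling by total reads moved the median of all genes from 0.01 to 0.18 for HF over all groups and from -0.01 to -0.13 for VDD over all groups. Of 746 values under settings other than single omissions, 714 kept direction and side of the threshold, and of 1686 with 1 library left out, 1647 did. The lowest level of a member in any library was 113 normalized reads, for Dpp4.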

Other observations

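Under maternal VDD all 8 brown adipocyte genes had estimates above 0 (median 1.85), 3 with an adjusted p under 0.05 by limma, and Cox7a1 (2.36) and Cox8b (1.99), subunits of cytochrome c oxidase found in muscle and brown fat, were called (adjusted p = 0.00466 for both). Under HF 7 of 8 were below 0 (median -0.68), 2 with an adjusted p under 0.05 and none called. With the skeletal muscle covariate the median for VDD was 1.93, 4 genes had an adjusted p under 0.05 and none was called (Cox7a1 and Cox8b, adjusted p = 0.0145). Without the libraries named renal the calls of Cox7a1 (2.45, adjusted p = 0.0647) and Cox8b (1.99, adjusted p = 0.0871) were lost too, as they were in 9 and 11 of 24 fits with 1 library left out (adjusted p up to 0.0142). Both were lost without CTRL LF male 2296, CTRL HF male 2131, VDD HF male 2298 or 2307, CTRL LF female 2124, CTRL HF female 2290 or 2292, VDD LF female 2311 or VDD HF female 2083, and Cox8b also without CTRL HF female 2291 or VDD LF female 2303. Skeletal muscle also expresses both genes, and its part in these values was not tested further.

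Macrophage genes were higher on HF, 9 of 10 with an adjusted p under 0.05 and 1 called (median 0.73), and all 10 were below 0 under VDD (median -0.46, none with an adjusted p under 0.05). Among adipocyte genes, 2 of 12 fell and 1 rose on HF (median -0.24). No lymphocyte gene of 8 was called in either comparison. Of 10 kidney and 9 adrenal genes, 3 of each were tested, none called for HF or VDD, and all 3 adrenal genes and 1 kidney gene were called lower in males than in females. Of 8 housekeeping genes, 1 rose and 1 fell on HF.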
